A study of Mus musculus with 15 samples.

Results

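The 9 genes described here act in butyrate handling in the colon and are the transporters Slc16a1, Slc5a8 and Slc16a3, the transporter chaperone Bsg, the receptors Ffar2, Ffar3 and Hcar2, the efflux pump Abcg2 and the mitochondrial enzyme Acads. They were taken by name, with each Ensembl ID matched to its symbol in GENCODE release M21, and all 9 were found among the 55335 genes listed for every mouse. Of the 9, 7 passed a filter on low values (at least 1 FPKM in at least 5 libraries) and entered the test of 14385 genes, while Ffar3 and Hcar2 did not and are given as values. FPKM are fragments scaled to the length of the transcript and to the mapped fragments of the library, so that levels of different genes can be set side by side.

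RNA was sequenced from colon tissue of 15 mice, 1 library per mouse. In the DSS_ICB_Fp group 5 mice received dextran sulfate sodium (DSS), immune checkpoint blockade (ICB) and Faecalibacterium prausnitzii by gavage, in the DSS_ICB group 5 mice received DSS and ICB, and in the DSS group 5 mice received DSS. DSS is a polymer that injures the colon lining, ICB is treatment with antibodies that release T cells from inhibition, and F. prausnitzii is a gut bacterium known for making butyrate. The labels do not give the antibodies, a control antibody, a control gavage, cages, strain, sex or age, so that the gavage of the bacterium and the gavage itself cannot be told apart, nor can any of the treatments and the cage. All mice carried DSS injury, and no group without DSS was measured here.

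Butyrate is a short-chain fatty acid that bacteria of the colon make from fibre and that colonocytes use as a main fuel. It enters the cell through the proton-coupled monocarboxylate transporter MCT1 (Slc16a1) and the sodium-coupled transporter SMCT1 (Slc5a8), is joined to coenzyme A in the mitochondrion and is then oxidised, with short-chain acyl-CoA dehydrogenase (Acads) at the first step of the cycle. MCT4 (Slc16a3) is a related transporter known for the export of lactate from glycolytic cells. Butyrate is also sensed from outside the cell by the receptors GPR43 (Ffar2), GPR41 (Ffar3) and GPR109A (Hcar2), and from inside as an inhibitor of histone deacetylases.

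The 250 bases before the start sites of Slc16a1, Slc16a3, Slc5a8 and Acads are shown because these 4 genes had the smallest p of the 7 tested between DSS_ICB_Fp and DSS_ICB. The sequences are from RefSeq on GRCm38.p6 and are given 5′ to 3′ on the strand of the gene. Capitals mark ACGTG, a form of the core of the hypoxia response element, and GGGCGG, the GC box. Each was searched on both strands, so that GGGCGG on the opposite strand reads CCGCCC. The form of that core that begins with G, GCGTG, was not searched and is not in capitals.
Slc16a1: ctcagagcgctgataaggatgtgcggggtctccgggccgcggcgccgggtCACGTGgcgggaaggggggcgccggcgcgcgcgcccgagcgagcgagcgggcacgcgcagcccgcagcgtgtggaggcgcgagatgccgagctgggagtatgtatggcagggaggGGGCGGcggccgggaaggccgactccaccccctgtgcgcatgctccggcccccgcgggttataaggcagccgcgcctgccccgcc
Slc16a3: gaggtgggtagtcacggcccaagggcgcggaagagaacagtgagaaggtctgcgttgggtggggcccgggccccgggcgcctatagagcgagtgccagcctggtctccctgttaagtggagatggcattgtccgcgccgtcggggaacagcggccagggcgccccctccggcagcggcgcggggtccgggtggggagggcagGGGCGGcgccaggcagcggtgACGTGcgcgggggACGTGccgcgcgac
Slc5a8: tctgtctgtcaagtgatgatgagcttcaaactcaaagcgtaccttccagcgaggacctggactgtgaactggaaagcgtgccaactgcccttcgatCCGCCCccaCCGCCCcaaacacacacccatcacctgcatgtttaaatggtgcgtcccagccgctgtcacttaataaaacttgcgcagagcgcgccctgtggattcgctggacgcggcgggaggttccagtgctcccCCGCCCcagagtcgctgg
Acads: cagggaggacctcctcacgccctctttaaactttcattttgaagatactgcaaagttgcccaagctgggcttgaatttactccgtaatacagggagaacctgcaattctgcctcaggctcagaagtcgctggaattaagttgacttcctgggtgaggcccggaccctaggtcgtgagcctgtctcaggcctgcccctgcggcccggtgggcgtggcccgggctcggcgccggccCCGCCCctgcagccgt

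The Slc16a1 window lies at chr3:104638414-104638663 (plus strand), the Slc16a3 window at chr11:120948817-120949066 (plus strand), the Slc5a8 window at chr10:88885742-88885991 (plus strand) and the Acads window at chr5:115119347-115119596 (minus strand). In GENCODE M21 the Slc16a3 gene begins at 120948480, so its window lies inside the gene, before a later RefSeq start site. ACGTG was found in the windows of both monocarboxylate transporters and not in those of Slc5a8 and Acads. The unsearched form GCGTG can be read in lower case in the windows of Slc16a1, Slc5a8 and Acads. The ACGTG matches therefore do not separate the windows by the hypoxia response element. Slc16a3 held 2 separate matches, which begin at -27 and -14 from the start site, while the 2 matches of Slc16a1, at -200 and -199, are CACGTG, 1 palindrome read on both strands. The GC box was found once in Slc16a1, Slc16a3 and Acads and 3 times in Slc5a8. Among 32851 promoter windows of the same length, 16.6% held ACGTG and 32.7% held GGGCGG. The windows of Slc16a1 and Slc16a3 were also rich in G and C, at 76.4% and 73.6%, against 58.8% in Slc5a8, 60.4% in Acads and a median of 52.4% over all windows. These matches describe the letters only.

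Per library, 13243 to 14336 genes had at least 1 FPKM. DSS_ICB 3 and DSS_ICB 5 stood apart from the rest, with median rank correlations with the other libraries of 0.725 and 0.864, against at least 0.922 for each of the other 13, and mitochondrially encoded genes made up 33.2% of FPKM in DSS_ICB 3. The epithelial markers, which include Epcam and the keratins Krt8 and Krt18, were present in every library, with a summed level of 5281 to 7832 FPKM in DSS_ICB_Fp, 839 to 7006 FPKM in DSS_ICB and 5307 to 6835 FPKM in DSS. The lowest sum was that of DSS_ICB 3. The 10 neutrophil markers summed to 112 to 222 FPKM in DSS_ICB_Fp, 336 to 2133 FPKM in DSS_ICB and 119 to 249.7 FPKM in DSS, with S100a8, S100a9 and Mmp8 at 0 in some DSS_ICB_Fp mice. Ly6g made up most of this sum in DSS_ICB_Fp and DSS. Its level was 139 ± 34.4 FPKM in DSS_ICB_Fp, 238 ± 157 FPKM in DSS_ICB and 149.5 ± 40.5 FPKM in DSS (SD, n = 5 each). Macrophage markers summed to 319 to 398 FPKM in DSS_ICB_Fp, 207 to 1072 FPKM in DSS_ICB and 382 to 590.5 FPKM in DSS. Smooth muscle markers summed to 1426 to 4129 FPKM in DSS_ICB_Fp, 1086 to 14970 FPKM in DSS_ICB and 1523 to 4768 FPKM in DSS. The 14970 FPKM was that of DSS_ICB 3, which had the lowest epithelial sum, and the next highest in that group was 3649 FPKM. The sum of erythroid markers was 26.4 to 244.5 FPKM in DSS_ICB_Fp, 132.8 to 1151 FPKM in DSS_ICB and 56.4 to 351.5 FPKM in DSS. These 3 lists reached their highest sums in DSS_ICB, where their ranges overlapped those of the other groups. Enteroendocrine markers ran from 183 to 285 FPKM in DSS_ICB_Fp, 88.1 to 480.4 FPKM in DSS_ICB and 163 to 298 FPKM in DSS. Endothelial markers ran from 34.8 to 58.5 FPKM in DSS_ICB_Fp, 57.9 to 136 FPKM in DSS_ICB and 31.2 to 68.9 FPKM in DSS. Hypoxia response genes ran from 102 to 141 FPKM in DSS_ICB_Fp, 108 to 184 FPKM in DSS_ICB and 98.6 to 133 FPKM in DSS. Their part in the levels of the 9 genes was not tested. In bulk tissue, fewer cells of a type and less RNA per cell cannot be told apart.

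The 9 genes spanned a wide range of levels. Averaged over the 15 mice, Bsg had 200.0 FPKM, Slc16a1 63.7 FPKM, Slc5a8 41.0 FPKM and Acads 29.9 FPKM, which placed them above 98.5%, 95.1%, 92.0% and 88.7% of the genes tested. Abcg2 followed with 7.84 FPKM, then Slc16a3 with 3.83, Hcar2 with 2.73, Ffar2 with 1.92 and Ffar3 with 0.356 FPKM. The uptake, chaperone and oxidation genes were thus the abundant ones. The order of the lower genes differed by group, since Hcar2 averaged 0.476 FPKM in DSS_ICB_Fp, 7.12 FPKM in DSS_ICB and 0.587 FPKM in DSS, while Ffar2 averaged 1.94 FPKM in DSS_ICB_Fp, 1.84 FPKM in DSS_ICB and 1.97 FPKM in DSS. In DSS_ICB, the means of Hcar2 and Slc16a3 (7.05 FPKM) lay above that of Abcg2 (6.35 FPKM), within their spread. Neighbours in the order over all 15 mice overlapped over the mice, except that the lowest Bsg level, 146 FPKM, lay above the highest Slc16a1 level, 102 FPKM, and that the lowest Ffar2 level, 1.18 FPKM, lay above the highest Ffar3 level, 0.822 FPKM.

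**Figure D1:**
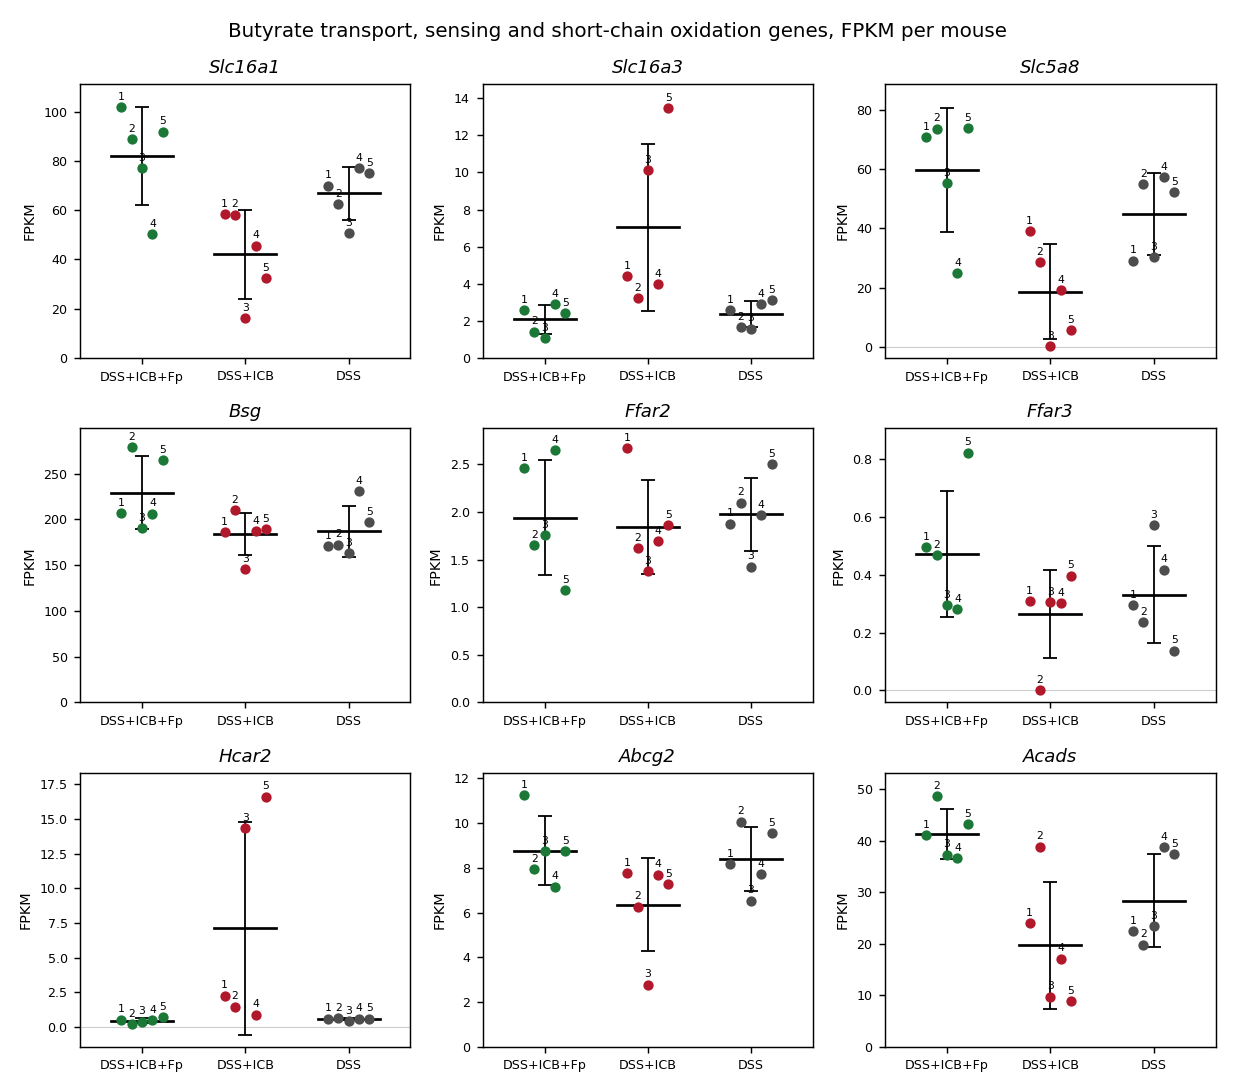
FPKM of the 9 genes in each mouse, with 1 panel per gene, points numbered by mouse and lines for the group mean ± SD (n = 5). Slc16a1, Slc5a8 and Acads have their lowest DSS_ICB points in mice 3 and 5, the mice with the highest Slc16a3 and Hcar2.

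The main uptake transporter, Slc16a1, was most abundant in the gavaged mice and least abundant in the DSS_ICB mice, by group mean. Its level was 102, 88.9, 77.1, 50.2 and 92.0 FPKM in DSS_ICB_Fp mice 1 to 5, against 58.4, 58.2, 16.1, 45.6 and 32.5 FPKM in DSS_ICB mice and 70.0, 62.5, 50.6, 77.0 and 75.0 FPKM in DSS mice. DSS_ICB_Fp 4 alone of the gavaged mice lay within the range of the DSS_ICB mice, and DSS_ICB 3 was the lowest of all 15. The log2 change, on the log2(FPKM + 1) scale, was 1.04 ± 0.30 for DSS_ICB_Fp over DSS_ICB (SE, limma adjusted p = 0.101), 0.26 ± 0.30 for DSS_ICB_Fp over DSS (adjusted p = 1.0) and -0.77 ± 0.30 for DSS_ICB over DSS (adjusted p = 0.430). None passed the threshold, an adjusted p under 0.05. Without DSS_ICB 3 and DSS_ICB 5 the change was 0.56 for DSS_ICB_Fp over DSS_ICB and -0.30 for DSS_ICB over DSS, and the last was -0.47 without DSS_ICB 3 alone. Each pair of these comparisons shares a group of mice, so that they are not independent of each other.

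Slc5a8, the sodium-coupled uptake transporter, was nearly absent from 1 mouse and abundant in most. It had 70.7, 73.6, 55.3, 24.8 and 73.9 FPKM in DSS_ICB_Fp mice 1 to 5, against 39.2, 28.7, 0.324, 19.3 and 5.60 FPKM in DSS_ICB mice and 29.1, 54.8, 30.3, 57.4 and 52.3 FPKM in DSS mice. The level was near 0 in DSS_ICB 3 and low in DSS_ICB 5, and again DSS_ICB_Fp 4 was the only gavaged mouse within the DSS_ICB range. The means were 59.7 ± 20.9 FPKM in DSS_ICB_Fp, 18.6 ± 16.0 FPKM in DSS_ICB and 44.8 ± 13.9 FPKM in DSS (SD, n = 5 each). The log2 change was 2.29 ± 0.72 for DSS_ICB_Fp over DSS_ICB (limma adjusted p = 0.113), 0.37 ± 0.72 for DSS_ICB_Fp over DSS (adjusted p = 1.0) and -1.92 ± 0.72 for DSS_ICB over DSS (adjusted p = 0.430). Without DSS_ICB 3 and DSS_ICB 5 together, the log2 change was 0.97 for DSS_ICB_Fp over DSS_ICB and -0.60 for DSS_ICB over DSS.

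Slc5a8 and Slc16a1 varied together over the mice, with a Pearson correlation of their log2 levels of 0.97 over 15 libraries and 0.90 over the 13 without DSS_ICB 3 and DSS_ICB 5. Both also followed the mean log2 level of 10 markers of absorptive colonocytes, among them Aqp8 and Guca2a. That mean correlated with Slc5a8 at 0.97 (0.86 over 13) and with Slc16a1 at 0.94 (0.77 over 13). These are descriptions over libraries of tissue pieces that share their cell makeup. The marker mean ran from 5.77 to 6.77 in DSS_ICB_Fp, from 2.83 to 5.64 in DSS_ICB and from 5.63 to 6.10 in DSS. The summed level, of which Car1 is a large share, was 1386 to 2619 FPKM in DSS_ICB_Fp, 194 to 1721 FPKM in DSS_ICB and 1313 to 1976 FPKM in DSS. Car1, a carbonic anhydrase, did not share the order of the transporters, with 553 ± 218 FPKM in DSS_ICB_Fp, 642 ± 334 FPKM in DSS_ICB and 789 ± 274 FPKM in DSS (SD, n = 5 each). Their part in the levels of the 2 transporters was not tested.

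Relative to the mean log2 level of the 10 epithelial markers, Slc5a8 stood at -2.65, -2.33, -2.86, -4.22 and -2.32 in DSS_ICB_Fp mice, at -3.37, -3.88, -5.51, -3.97 and -5.63 in DSS_ICB mice and at -3.73, -2.76, -3.58, -2.83 and -3.10 in DSS mice. DSS_ICB 3 and DSS_ICB 5 thus remained the lowest of the 15 on this scale too. With that marker mean as a covariate in the fit, the log2 change of Slc5a8 was 1.27 for DSS_ICB_Fp over DSS_ICB and -0.96 for DSS_ICB over DSS. Neither passed the threshold, an adjusted p under 0.05 by limma. For every other member the relative level in DSS_ICB 3 was the highest of the 15, such as -1.81 for Slc16a1 and -2.485 for Acads. The marker mean itself was 5.91 in DSS_ICB 3, against 8.31 to 8.91 in the other mice. Ffar2 and Ffar3, at most 1.88 on the log2 scale in any mouse, could not fall as far. For such low genes the rank follows from the subtraction. The mean relative level of Slc16a1 was -2.36 in DSS_ICB_Fp, -2.71 in DSS_ICB and -2.58 in DSS. That of Acads was -3.30 in DSS_ICB_Fp and -3.83 in both DSS_ICB and DSS.

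Bsg, which encodes basigin, the glycoprotein that carries MCT1 and MCT4 to the cell surface, was the most abundant of the 9 genes in every mouse. It had 207, 279, 190.4, 206 and 265 FPKM in DSS_ICB_Fp mice 1 to 5, against 186, 210.2, 146, 187 and 189 FPKM in DSS_ICB mice and 171, 172, 163, 231 and 197 FPKM in DSS mice. All 3 groups overlapped. The log2 change was 0.31 ± 0.16 for DSS_ICB_Fp over DSS_ICB (limma adjusted p = 0.260), 0.29 ± 0.16 for DSS_ICB_Fp over DSS (adjusted p = 1.0) and -0.02 ± 0.16 for DSS_ICB over DSS (adjusted p = 0.964).

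Slc16a3, the lactate exporter of the same family as Slc16a1, ran the other way. It had 2.59, 1.41, 1.08, 2.90 and 2.43 FPKM in DSS_ICB_Fp mice 1 to 5, against 4.42, 3.23, 10.1, 3.97 and 13.5 FPKM in DSS_ICB mice and 2.59, 1.64, 1.58, 2.88 and 3.13 FPKM in DSS mice. Every DSS_ICB mouse lay above every mouse of the other two groups, by a small margin in DSS_ICB 2 and a large one in DSS_ICB 3 and DSS_ICB 5. The log2 change was -1.25 ± 0.31 for DSS_ICB_Fp over DSS_ICB (limma adjusted p = 0.0844), -0.14 ± 0.31 for DSS_ICB_Fp over DSS (adjusted p = 1.0) and 1.11 ± 0.31 for DSS_ICB over DSS (adjusted p = 0.381). Without DSS_ICB 3 and DSS_ICB 5 it was -0.70 for DSS_ICB_Fp over DSS_ICB and 0.55 for DSS_ICB over DSS. Slc16a3 levels followed the neutrophil markers, with a correlation of 0.90 over 15 libraries and 0.69 over the 13 without DSS_ICB 3 and DSS_ICB 5. The correlation was 0.28 (0.21 over 13) with macrophage, 0.71 (0.18) with endothelial and -0.77 (-0.45) with absorptive colonocyte markers. The neutrophil markers also correlated, inversely, with Slc16a1 at -0.89 (-0.73 over 13), Slc5a8 at -0.89 (-0.72) and Acads at -0.87 (-0.62). A strong correlation with these markers was thus not particular to Slc16a3. The part of neutrophil RNA in the Slc16a3 level was not tested.

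Since FPKM are per length, the transporters can be set against each other within a mouse. Slc16a1 exceeded Slc16a3 in all 15 mice, by 39.4, 63.0, 71.6, 17.3 and 37.9 times in DSS_ICB_Fp mice 1 to 5, by 13.2, 18.0, 1.59, 11.5 and 2.41 times in DSS_ICB mice and by 27.1, 38.0, 32.0, 26.7 and 24.0 times in DSS mice. The excess was smallest in the DSS_ICB mice, where the 2 transporters came within a few fold of each other in mice 3 and 5, and DSS_ICB_Fp 4 was the one gavaged mouse inside the range of DSS_ICB. On the log2 scale with 1 FPKM added, the level of Slc16a3 minus that of Slc16a1 averaged -4.75 ± 0.62 in DSS_ICB_Fp, -2.47 ± 1.44 in DSS_ICB and -4.35 ± 0.14 in DSS (SD, n = 5 each).

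This balance differed by -2.29 between DSS_ICB_Fp and DSS_ICB, by 1.88 between DSS_ICB and DSS and by -0.41 between DSS_ICB_Fp and DSS. The pair was chosen with earlier results of these 2 genes known, so the differences are a description and no p is given. Without DSS_ICB 3 and DSS_ICB 5, the difference was -1.26 for DSS_ICB_Fp minus DSS_ICB and 0.85 for DSS_ICB minus DSS, and the 3 other DSS_ICB mice still lay above all 5 DSS mice. Without DSS_ICB_Fp 4, the balance differed by -0.67 between DSS_ICB_Fp and DSS.

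**Figure D2:**
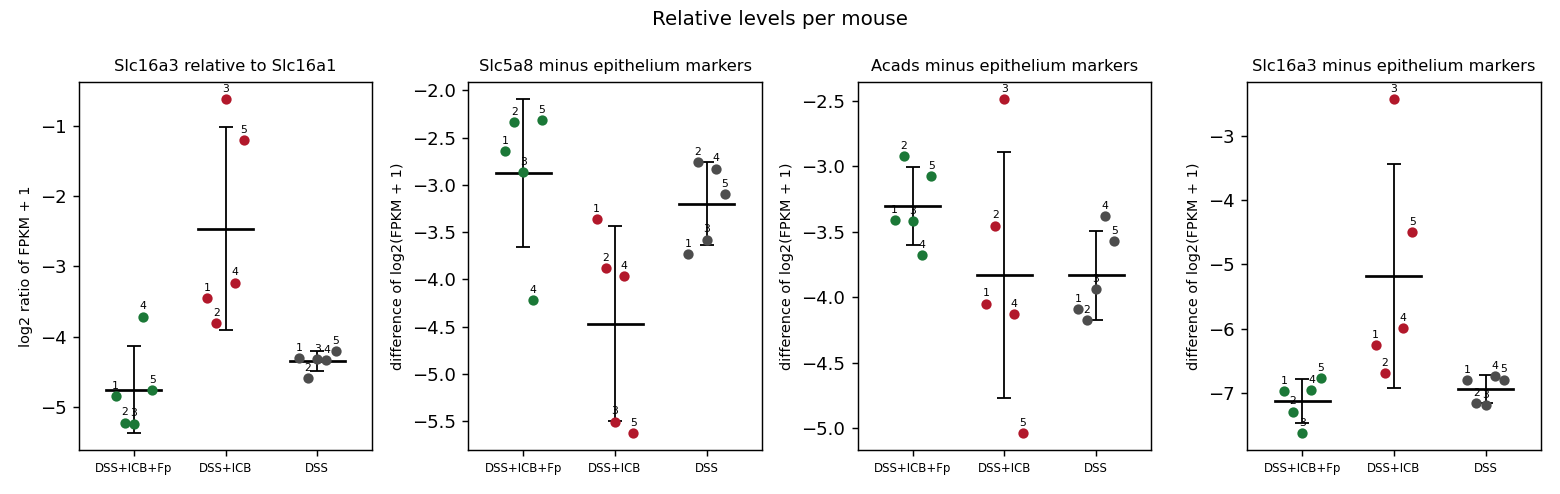
Relative levels per mouse, as the log2 ratio of Slc16a3 to Slc16a1 (left) and the log2 level of Slc5a8, Acads and Slc16a3 minus the mean log2 level of 10 epithelial markers, with group mean ± SD (n = 5). In the left panel the 5 DSS_ICB mice sit between -3.81 and -0.62, all above the DSS mice.

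Of the 3 receptors of butyrate, Ffar2 and Ffar3 were low in every mouse, and Hcar2 was low in all but some DSS_ICB mice. Ffar2, which is known on leukocytes and enteroendocrine cells, had 2.46, 1.65, 1.76, 2.65 and 1.18 FPKM in DSS_ICB_Fp mice 1 to 5, against 2.67, 1.62, 1.38, 1.69 and 1.86 FPKM in DSS_ICB mice and 1.88, 2.10, 1.43, 1.96 and 2.499 FPKM in DSS mice. The groups lay on top of each other. Its log2 change was 0.04 ± 0.16 for DSS_ICB_Fp over DSS_ICB (limma adjusted p = 0.907), -0.03 ± 0.16 for DSS_ICB_Fp over DSS (adjusted p = 1.0) and -0.07 ± 0.16 for DSS_ICB over DSS (adjusted p = 0.867). Its correlation over the 15 libraries was 0.19 with the colonocyte markers and -0.04 with the neutrophil markers, the smallest in size among the 7 tested members. Without DSS_ICB 3 and DSS_ICB 5, over 13 libraries, the signs turned, to -0.34 and 0.33. With the epithelial markers the correlation of Ffar2 was 0.45 (0.63 over 13), and with the endothelial markers -0.57 (-0.61).

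Ffar3, which lies 30554 bases from Ffar2 on the minus strand of chromosome 7, was under 1 FPKM in every library. It had 0.496, 0.468, 0.296, 0.282 and 0.822 FPKM in DSS_ICB_Fp mice 1 to 5, against 0.308, 0.0, 0.306, 0.302 and 0.397 FPKM in DSS_ICB mice and 0.294, 0.236, 0.571, 0.418 and 0.138 FPKM in DSS mice. Levels this low rest on few fragments, and the groups overlapped.

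Hcar2, the receptor of butyrate, niacin and the ketone body beta-hydroxybutyrate, known on colonocytes and on neutrophils and macrophages, had the largest contrast of the receptors. It had 0.547, 0.219, 0.4004, 0.495 and 0.719 FPKM in DSS_ICB_Fp mice 1 to 5, against 2.28, 1.48, 14.3, 0.906 and 16.6 FPKM in DSS_ICB mice and 0.612, 0.651, 0.446, 0.615 and 0.612 FPKM in DSS mice. Every DSS_ICB mouse lay above every mouse of the other groups, and the level was highest in DSS_ICB 3 and DSS_ICB 5. At least 1 FPKM was reached in only 4 libraries, so that Hcar2 stayed under the filter. In a fit with no filter, over 33951 genes, its log2 change was -1.85 ± 0.52 for DSS_ICB_Fp over DSS_ICB (limma adjusted p = 0.192) and 1.74 ± 0.52 for DSS_ICB over DSS (adjusted p = 0.619), and neither passed.

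Hcar2 and Slc16a3 varied together, at a correlation of 0.93 over 15 libraries and 0.73 over 13. Hcar2 followed the neutrophil markers, which include S100a8 and Csf3r, at 0.91 over 15 libraries and 0.80 over 13. Its correlation was 0.23 (0.23 over 13) with macrophage, 0.79 (0.34) with endothelial and -0.85 (-0.43) with absorptive colonocyte markers. Of the 9 tested neutrophil markers, 5 were lower in DSS_ICB_Fp than in DSS_ICB at a limma adjusted p under 0.05, where 0.132% of all genes tested passed in either direction. For DSS_ICB over DSS, 0 passed by limma and 8 were higher at an unadjusted p under 0.05, where 0.0209% and 7.08% of all genes were. Some of these markers met the filter largely through DSS_ICB, which favours such counts. Cxcr2 averaged 0.207 FPKM in DSS_ICB_Fp, 5.28 FPKM in DSS_ICB and 0.629 FPKM in DSS, and Il1r2 0.543, 7.90 and 0.685 FPKM in that order. The part of these cells in the Hcar2 level was not tested.

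**Figure D3:**
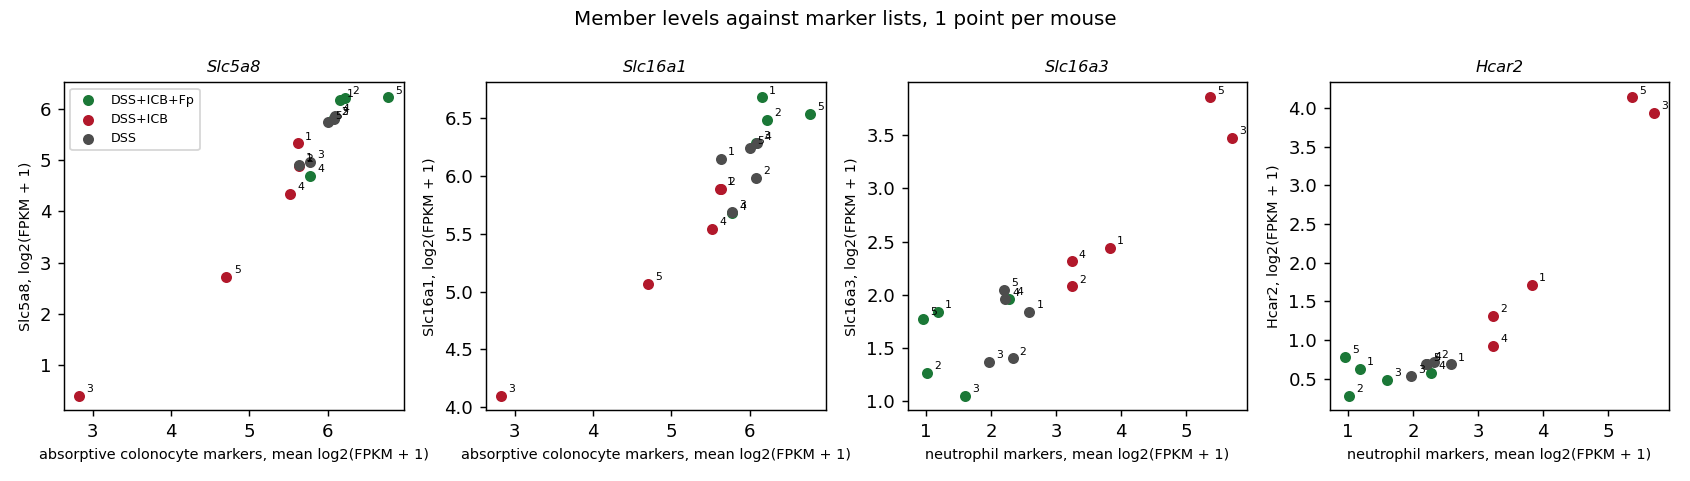
Levels of Slc5a8 and Slc16a1 against absorptive colonocyte markers, and of Slc16a3 and Hcar2 against neutrophil markers, all as log2(FPKM + 1), with 1 numbered point per mouse. DSS_ICB 3 and 5 lie at the low end of the colonocyte axis and the high end of the neutrophil axis.

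Abcg2, the efflux pump BCRP of the apical membrane, had 11.2, 7.95, 8.75, 7.15 and 8.74 FPKM in DSS_ICB_Fp mice 1 to 5, against 7.76, 6.26, 2.78, 7.69 and 7.27 FPKM in DSS_ICB mice and 8.15, 10.1, 6.53, 7.72 and 9.54 FPKM in DSS mice. The groups overlapped, and DSS_ICB 3 was the one mouse well below the others. The log2 change was 0.46 ± 0.21 for DSS_ICB_Fp over DSS_ICB (limma adjusted p = 0.220), 0.06 ± 0.21 for DSS_ICB_Fp over DSS (adjusted p = 1.0) and -0.40 ± 0.21 for DSS_ICB over DSS (adjusted p = 0.460). Without DSS_ICB 3 it was 0.23 for DSS_ICB_Fp over DSS_ICB and -0.18 for DSS_ICB over DSS.

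Acads, the enzyme of the first oxidation step, was the member in which the gavaged mice were most alike. It had 41.2, 48.7, 37.3, 36.7 and 43.2 FPKM in DSS_ICB_Fp mice 1 to 5, against 24.0, 38.9, 9.75, 17.1 and 8.95 FPKM in DSS_ICB mice and 22.5, 19.9, 23.5, 38.8 and 37.4 FPKM in DSS mice. The coefficient of variation was 11.8% in DSS_ICB_Fp, 62.4% in DSS_ICB and 31.6% in DSS, and DSS_ICB 2 was the only DSS_ICB mouse within the range of the gavaged mice. The log2 change was 1.22 ± 0.33 for DSS_ICB_Fp over DSS_ICB (limma adjusted p = 0.0873), 0.57 ± 0.33 for DSS_ICB_Fp over DSS (adjusted p = 1.0) and -0.65 ± 0.33 for DSS_ICB over DSS (adjusted p = 0.454). Without DSS_ICB 3 and DSS_ICB 5 together, it was 0.68 for DSS_ICB_Fp over DSS_ICB and -0.11 for DSS_ICB over DSS. Among the members, the Acads change for DSS_ICB_Fp over DSS was the largest in size.

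**Figure D4:**
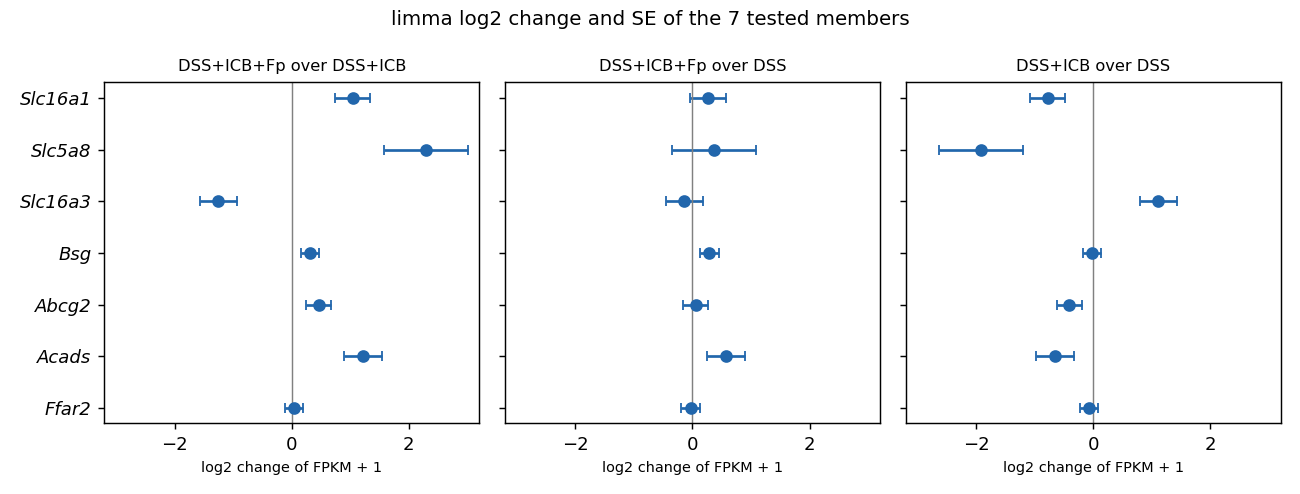
limma log2 changes of FPKM + 1 with SE for the 7 tested genes, in 3 comparisons of 5 mice against 5. Slc16a3 (-1.25) stands on the other side of 0 from Slc5a8 (2.29), Acads (1.22) and Slc16a1 (1.04) for DSS+ICB+Fp over DSS+ICB.

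For DSS_ICB_Fp over DSS_ICB, 0 of the 7 tested members passed by limma, where 0.132% of all genes tested did. At an unadjusted p under 0.05, 4 were higher (Slc16a1, Slc5a8, Abcg2 and Acads) and 1 was lower (Slc16a3), where 9.34% of all genes were higher and 12.4% lower. Their median log2 change was 0.46, against -0.04 over all genes tested. Of the 7, Slc16a3 was the 1 whose DSS_ICB_Fp mice all lay below the DSS_ICB mice, as in 2.46% of tested genes, and Hcar2, which was not tested, showed the same. The calls of 4 members depended on the libraries and their weights. With sample quality weights, which give less weight to variable libraries, Slc16a1, Slc16a3, Slc5a8 and Acads passed (limma adjusted p = 0.0345, 0.0405, 0.0421 and 0.0404). The same 4 passed without DSS_ICB 1 (adjusted p = 0.0473, 0.0454, 0.0466 and 0.0469 in that order), 2 of them without DSS_ICB 2 (Slc16a3 and Acads) and 2 without DSS_ICB_Fp 4 (Slc16a1 and Slc16a3).

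For DSS_ICB_Fp over DSS, 0 of 7 passed by limma and 0 had an unadjusted p under 0.05, where 0% and 1.41% of all genes tested did. The median was 0.26, against -0.01 over all genes. For DSS_ICB over DSS, 0 of 7 passed, where 0.0209% of all genes did. At an unadjusted p under 0.05, Slc16a3 was higher and Slc16a1 and Slc5a8 were lower, where 7.08% of all genes were higher and 4.22% lower. The median was -0.40, against 0.02 over all genes, and of the 7 Slc16a3 was the 1 whose DSS_ICB mice all lay above the DSS mice, as in 1.21% of tested genes. Hcar2, which was not tested, showed the same.

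The genes that activate and oxidise short acyl chains around Acads were measured as a list of 18, of which 14 were tested. Of the 14, 0 passed by limma in any comparison. For DSS_ICB_Fp over DSS_ICB, 12 lay above 0, where 44.5% of all genes tested did, and 8 were higher at an unadjusted p under 0.05, where 9.34% of all genes were. Their median log2 change was 0.51, against -0.04 over all genes. For DSS_ICB over DSS, 12 lay below 0 and 6 were lower at an unadjusted p under 0.05, where 47.2% and 4.22% of all genes were. The median was -0.41, against 0.02 over all genes. For DSS_ICB_Fp over DSS the median was 0.08, and 0 had an unadjusted p under 0.05.

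Acadm, the medium-chain counterpart of Acads, had 33.9, 31.1, 28.2, 23.0 and 31.1 FPKM in DSS_ICB_Fp mice 1 to 5, against 21.4, 21.9, 14.9, 19.4 and 11.9 FPKM in DSS_ICB mice and 22.6, 26.1, 22.4, 27.7 and 25.8 FPKM in DSS mice. All DSS_ICB mice lay below all others, in a gene picked for its small p. Its log2 change was 0.71 ± 0.16 for DSS_ICB_Fp over DSS_ICB (limma adjusted p = 0.0712) and -0.48 ± 0.16 for DSS_ICB over DSS (adjusted p = 0.418). Etfdh, which passes the electrons of these dehydrogenases to ubiquinone, averaged 11.7 ± 1.20 FPKM in DSS_ICB_Fp, 7.93 ± 2.06 FPKM in DSS_ICB and 11.2 ± 1.04 FPKM in DSS (SD, n = 5 each). Its log2 change was 0.53 ± 0.15 for DSS_ICB_Fp over DSS_ICB (adjusted p = 0.0947) and -0.48 ± 0.15 for DSS_ICB over DSS (adjusted p = 0.418).

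Echs1, the enoyl-CoA hydratase of the next step, averaged 12.9 ± 0.824 FPKM in DSS_ICB_Fp and 10.9 ± 1.77 FPKM in DSS, a log2 change of 0.23 ± 0.20 (limma adjusted p = 1.0). Across the 14 genes, the lowest value of the 15 mice was in DSS_ICB 3 for 9 genes, in DSS_ICB 5 for 4 and in DSS_ICB 2 for 1. DSS_ICB 3 and DSS_ICB 5 also stood apart over all tested genes, with median rank correlations of 0.725 and 0.864. The share of all genes with their lowest value there was not computed, so the count is not shown to be particular to this list. Acadsb, the dehydrogenase of short branched chains, was the exception in DSS_ICB 3, where its 9.85 FPKM was the highest of the 15 mice. Acadsb was singled out after its values were seen.

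**Figure D5:**
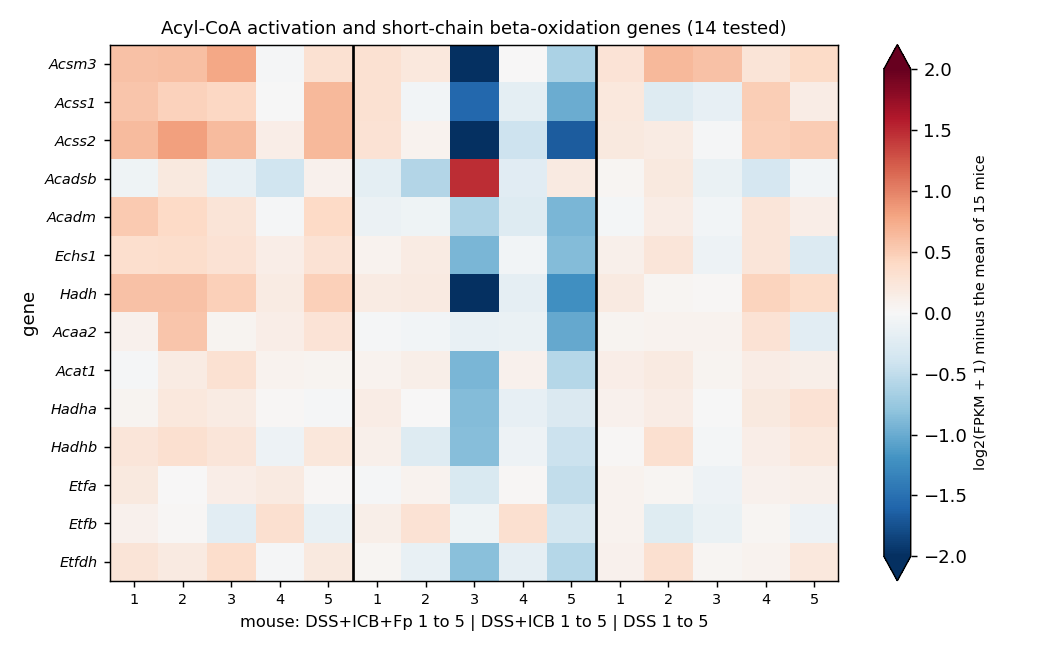
Log2(FPKM + 1) of the 14 tested genes of acyl-CoA activation and short-chain oxidation (Acads apart), in each mouse, minus the mean of the 15 mice; the colour scale ends at -2 and 2. DSS_ICB 3 and 5 hold the lowest value for 13 of the 14 genes, and Acadsb is high in DSS_ICB 3. The share over all genes was not computed.

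Among 10 other carboxylate transporters and partners, 5 were tested and 0 passed by limma in any comparison. Slc26a3, the chloride and bicarbonate exchanger of the colonocyte surface, had 69.0, 92.4, 86.2, 25.9 and 184 FPKM in DSS_ICB_Fp mice 1 to 5, against 31.6, 22.6, 0.296, 26.4 and 4.84 FPKM in DSS_ICB mice and 39.4, 59.3, 40.3, 52.3 and 69.5 FPKM in DSS mice. As with Slc5a8, the level was near 0 in DSS_ICB 3, low in DSS_ICB 5 and lowest of the gavaged mice in DSS_ICB_Fp 4. The log2 change of Slc26a3 was 2.82 ± 0.74 for DSS_ICB_Fp over DSS_ICB (limma adjusted p = 0.0862) and -2.24 ± 0.74 for DSS_ICB over DSS (adjusted p = 0.418). Slc16a6, another monocarboxylate transporter, was on the side of Slc16a3, with a log2 change of -0.73 ± 0.23 for DSS_ICB_Fp over DSS_ICB (adjusted p = 0.113) and 0.44 ± 0.23 for DSS_ICB over DSS (adjusted p = 0.462). Emb, embigin, a chaperone related to basigin, averaged 1.01 ± 0.125 FPKM in DSS_ICB_Fp and 1.57 ± 0.361 FPKM in DSS (log2 change -0.35 ± 0.24, adjusted p = 1.0), and these groups did not overlap. Slc5a12, the second sodium-coupled monocarboxylate transporter, was listed at 0 in every library.

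Ketone body genes, whose products use the acetyl-CoA that oxidation yields, were tested for 5 of 6, and 0 passed. All 5 were above 0 for DSS_ICB_Fp over DSS_ICB and below 0 for DSS_ICB over DSS, where 44.5% and 47.2% of all genes were. Bdh1, which interconverts acetoacetate and beta-hydroxybutyrate, had a log2 change of 0.28 ± 0.15 for DSS_ICB_Fp over DSS_ICB (limma adjusted p = 0.297) and of -0.20 ± 0.15 for DSS_ICB over DSS (adjusted p = 0.596).

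Of 8 genes of intracellular butyrate sensing, which hold class I histone deacetylases and nuclear receptor partners, 8 were tested and 0 passed. Ppargc1a, a coactivator of mitochondrial genes, had 8.80, 4.46, 7.81, 3.09 and 9.95 FPKM in DSS_ICB_Fp mice 1 to 5, against 4.76, 4.09, 0.576, 3.38 and 1.39 FPKM in DSS_ICB mice and 4.89, 6.34, 5.36, 7.10 and 6.32 FPKM in DSS mice. Every DSS mouse lay above every DSS_ICB mouse, while the gavaged mice spread over both. Its log2 change was 1.09 ± 0.34 for DSS_ICB_Fp over DSS_ICB (limma adjusted p = 0.113) and -1.02 ± 0.34 for DSS_ICB over DSS (adjusted p = 0.418). Angptl4, a lipase inhibitor and a target of PPARs, was on the other side, with a log2 change of -1.17 ± 0.34 for DSS_ICB_Fp over DSS_ICB (adjusted p = 0.103) and 0.98 ± 0.34 for DSS_ICB over DSS (adjusted p = 0.420). Its level was low, at 0.450 ± 0.312 FPKM in DSS_ICB_Fp, 2.62 ± 2.21 FPKM in DSS_ICB and 0.744 ± 0.878 FPKM in DSS (SD, n = 5 each). At least 1 FPKM was reached only in DSS_ICB mice 2 to 5 and in DSS 3 (2.31 FPKM). Angptl4 thus passed the filter mainly through DSS_ICB. For DSS_ICB_Fp over DSS the smallest p were those of Hdac2, a histone deacetylase, at -0.16 ± 0.12, and of Ahr, the aryl hydrocarbon receptor, at -0.18 ± 0.16 (adjusted p = 1.0 for both).

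Other metabolite-sensing receptors and their signalling partners were tested for 6 of 10, and 0 passed. Arrb2, the arrestin that couples to such receptors, averaged 3.74 ± 0.305 FPKM in DSS_ICB_Fp, 6.66 ± 2.67 FPKM in DSS_ICB and 4.41 ± 1.40 FPKM in DSS (SD, n = 5 each), with a log2 change of -0.62 ± 0.22 for DSS_ICB_Fp over DSS_ICB (limma adjusted p = 0.140) and 0.47 ± 0.22 for DSS_ICB over DSS (adjusted p = 0.443). Ffar1, a receptor of long-chain fatty acids, had a log2 change of -0.69 ± 0.30 for DSS_ICB_Fp over DSS_ICB (adjusted p = 0.198). Its levels were low, at 0.253 ± 0.316 FPKM in DSS_ICB_Fp, 1.13 ± 0.859 FPKM in DSS_ICB and 0.711 ± 0.515 FPKM in DSS. Gnai2, an inhibitory G protein subunit, had a log2 change of 0.43 ± 0.20 for DSS_ICB over DSS (adjusted p = 0.444). Olfr78, a receptor of acetate and propionate, averaged 1.59 ± 0.309 FPKM in DSS_ICB_Fp and 1.07 ± 0.265 FPKM in DSS (log2 change 0.33 ± 0.16, adjusted p = 1.0).

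Of 15 genes of glucose uptake, glycolysis, lactate production and their control, 15 were tested and 0 passed. Their median log2 changes were 0.03 for DSS_ICB_Fp over DSS_ICB and -0.06 for DSS_ICB over DSS. Pfkfb3, an activator of glycolysis, had 1.57, 1.09, 1.29, 2.96 and 1.92 FPKM in DSS_ICB_Fp mice 1 to 5, against 1.98, 1.91, 10.6, 2.96 and 14.2 FPKM in DSS_ICB mice and 2.597, 2.57, 1.21, 1.93 and 2.90 FPKM in DSS mice. As with Slc16a3, DSS_ICB 3 and DSS_ICB 5 were the highest, but here the other 3 DSS_ICB mice lay among or beside the mice of the other groups. The log2 change of Pfkfb3 was -1.08 ± 0.41 for DSS_ICB_Fp over DSS_ICB (limma adjusted p = 0.158) and 0.84 ± 0.41 for DSS_ICB over DSS (adjusted p = 0.452). Aldoa, an aldolase, had a log2 change of 0.29 ± 0.13 for DSS_ICB_Fp over DSS_ICB (adjusted p = 0.206). Pdk1, a kinase that inhibits pyruvate dehydrogenase, had a log2 change of -0.41 ± 0.19 for DSS_ICB over DSS (adjusted p = 0.450).

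The genes most like each member over the 15 libraries were found by Pearson correlation of log2 levels among 12575 named genes, as a description. Slc5a8 was closest to Sult1d1, a sulfotransferase, at 0.994 (0.961 without DSS_ICB 3 and DSS_ICB 5), and to Hepacam2 at 0.991 (0.944). Slc16a1 was closest to Osbpl2 at 0.986 (0.975) and Ndrg3 at 0.985 (0.946), and Acads to Adck5 at 0.972 (0.939) and Mpst at 0.971 (0.933). Slc16a3 was closest to C1ra, a complement protease, at 0.952 (0.816) and to Il1a, a cytokine, at 0.940 (0.737). Il1a averaged 0.364 FPKM in DSS_ICB_Fp, 13.7 FPKM in DSS_ICB and 0.535 FPKM in DSS. Abcg2 was closest to Clrn3 (0.960) and Fam110c (0.957), Bsg to Hps4 (0.885) and Smim5 (0.867), and Ffar2 to Tnfrsf8 (0.873) and Clca4b (0.824).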

How the data were processed

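RNA sequencing values of 15 colon samples were used, 5 per group. Per the submitters' processing notes, the authors named FastQC, STAR 2.5 with mm10, Cuffnorm and DESeq. The deposited values are FPKM as the authors computed them. Whether they were scaled further between libraries is not given in the sources used here, nor is the depth. When low FPKM were divided by the worth of 1 fragment at the best depth, 34.0% to 43.8% came out whole to within 0.03 log2, against 7.11% to 8.07% at other depths. Most values were thus off whole steps, so whole reads were not recovered and count models were not used. A low FPKM therefore has no counting interval.

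From the FPKM, log2(FPKM + 1) was fitted with limma 3.58.1 in R 4.3.3 (trend and robust empirical Bayes, 1 mean per group, all 15 libraries, two-sided) over the 14385 genes with at least 1 FPKM in at least 5 libraries. P-values were adjusted by the Benjamini-Hochberg method over all genes tested, and the threshold was 0.05. The added 1 FPKM understates the changes of low genes. The balance of Slc16a3 and Slc16a1 was taken per mouse. An exact permutation test had been set for it, but its p is not given, since the pair was chosen with earlier results known. Libraries are labelled as separate mice and are numbered 1 to 5 within a group in an order that carries no meaning.

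The 9 members, 6 pathway lists of 67 genes and 9 marker lists were chosen with earlier results of these data known, as was the balance of the 2 transporters. Named genes were the members, the 2 genes with the smallest p of each pathway list in a comparison, and the 2 genes most like each tested member, predicted gene models left out. For DSS_ICB_Fp over DSS, where every adjusted p of the lists was 1.0, only some of these examples are given. Where groups of a pathway list gene did not overlap, this describes a picked gene, and the share of all genes is not given. Aldoa had 2 IDs with 1 symbol, of which the one with the higher mean was used. Promoter sequences came from RefSeq (GRCm38.p6), where 7 of the 9 members had an entry, and the 50 bases after the start site were left out. Alternatives were other scalings, pseudocounts of 0.1 and 10, no filter and a filter at 5 FPKM, 2 groups only, sample quality weights, the epithelial marker mean as a covariate, and leaving out libraries. The values of 1 gene named by the smallest-p rule are not reported here.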

Additional observations from a re-analysis of the deposited data

Results flagged for a closer look

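Of 30 groups of 5 mice examined for a lone extreme value, 2 had one, where chance gives about 1 in 20. Ffar3 was listed at 0.0 FPKM in DSS_ICB 2, against 0.302 to 0.397 FPKM in the other 4 DSS_ICB mice. Hcar2 was 0.446 FPKM in DSS 3, against 0.612 to 0.651 FPKM in the other 4 DSS mice. Both lie under 1 FPKM, where values rest on few fragments.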

How the results depend on the processing

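For DSS_ICB_Fp over DSS_ICB, 0 members passed in the chosen fit, 4 passed with sample quality weights, and leaving out 1 library in turn gave 0 to 4. In the 2 other comparisons 0 members passed under every alternative run. The balance of Slc16a3 and Slc16a1 without DSS_ICB 3 and DSS_ICB 5 was -1.26 for DSS_ICB_Fp minus DSS_ICB and 0.85 for DSS_ICB minus DSS. Leaving out 1 library gave -2.63 to -1.83 for DSS_ICB_Fp minus DSS_ICB, 1.42 to 2.22 for DSS_ICB minus DSS and -0.67 (without DSS_ICB_Fp 4) to -0.29 for DSS_ICB_Fp minus DSS.

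Signs turned only for changes near 0 that did not pass. For DSS_ICB over DSS, Bsg was 0.0193 with quality weights, 0.0704 with the epithelial covariate, 0.0679 without DSS_ICB 3 and DSS_ICB 5, and -0.0715 to 0.059 with 1 library left out. Ffar2 was 0.0345 with the covariate and 0.0027 without those 2 libraries. For DSS_ICB_Fp over DSS_ICB, Ffar2 was -0.0419 with weights, -0.0728 with the covariate, -0.034 without those 2 and -0.0453 to 0.14 with 1 left out. For DSS_ICB_Fp over DSS, with 1 left out, Ffar2 was -0.115 to 0.0697 and Abcg2 -0.0297 to 0.117. The causes were not tested. A filter at 5 FPKM removed Slc16a3 and Ffar2, which then had no value. No paired analysis was possible because the mice were numbered within each group without any link to a mouse of another group.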

Other observations

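Hdac8, a class I histone deacetylase of the sensing list, was picked out after its values were seen. It had 1.75, 1.69, 1.97, 1.53 and 1.71 FPKM in DSS_ICB_Fp mice 1 to 5, against 1.29, 1.29, 1.15, 1.34 and 1.28 FPKM in DSS_ICB mice and 1.65, 1.90, 1.49, 1.83 and 1.63 FPKM in DSS mice. All DSS_ICB mice lay below all others. The log2 change was 0.27 ± 0.09 for DSS_ICB_Fp over DSS_ICB (SE, limma adjusted p = 0.127) and -0.25 ± 0.09 for DSS_ICB over DSS (adjusted p = 0.427).

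Acss2, which joins acetate to coenzyme A, was low in the same mice as Slc5a8. It had 15.8, 18.2, 15.8, 10.8 and 16.0 FPKM in DSS_ICB_Fp mice 1 to 5, against 12.3, 10.3, 0.966, 7.14 and 2.43 FPKM in DSS_ICB mice and 11.5, 11.1, 9.61, 14.03 and 14.3 FPKM in DSS mice. Its log2 change was 1.41 ± 0.41 for DSS_ICB_Fp over DSS_ICB (limma adjusted p = 0.102) and -1.10 ± 0.41 for DSS_ICB over DSS (adjusted p = 0.430). Gpr84, a receptor of medium-chain fatty acids known on phagocytes, was under the filter, with 0.0871, 0.0521, 0.0, 0.314 and 0.063 FPKM in DSS_ICB_Fp mice 1 to 5, against 0.548, 0.262, 1.09, 0.289 and 2.09 FPKM in DSS_ICB mice and 0.0448, 0.101, 0.0, 0.0778 and 0.22 FPKM in DSS mice. As with Hcar2, its 2 highest values were in DSS_ICB 3 and DSS_ICB 5, and both genes of this paragraph were chosen after their values were seen.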
